A study of Drosophila melanogaster and Drosophila simulans and Drosophila yakuba with 8 samples.

Results

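The genes described here were selected on their RPKM values (reads scaled by exon length and by mapped reads) as setting the Zeus knockdown apart from both other D. melanogaster groups in adult testis. A gene was taken as higher when its RPKM was at least 2 in both Zeus knockdown libraries and at least 2-fold above the highest of the 4 wildtype and Caf40 knockdown libraries. It was taken as lower when both Zeus knockdown values were at least 2-fold below the lowest of those 4 values, which itself had to be at least 2 RPKM. Of 15178 listed genes, 136 were members: 52 were higher and 84 were lower. Another 6 met the limits and were left out by name, among them the knocked-down gene, so 0.936% of listed genes passed fold and floor. These values chose the members, so the difference of the Zeus knockdown from the other groups is a description without a test.

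Zeus, listed as Rcd-1r, is a young retrocopy of Caf40, listed as Rcd-1. Caf40 is a subunit of CCR4-NOT, which removes poly(A) tails from transcripts and thereby promotes their decay and silences their translation. The testis holds germ cells at every stage from stem cell to sperm, with supporting somatic cells, and transcribes an unusually large part of the genome.

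Per the labels, messenger RNA libraries were made with an Illumina single-end kit from dissected testes of adults aged 1 to 7 days. The groups were nosGal4>>UAS-Zeus-RNAi (Zeus RNAi, or Zeus knockdown), nosGal4>>UAS-Caf40-RNAi (Caf40 RNAi, or Caf40 knockdown) and wildtype, with 2 libraries each, all labelled as strain Oregon-R. The nos driver is active in germ cells. No driver-only control was among the libraries analysed here. Nothing states that paired libraries came from separate animals, so p-values measure the spread between these libraries, which may be technical.

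Gene reads per library ran from 12662615 to 24429722, at which 3 reads on a 1 kb gene correspond to 0.120 to 0.232 RPKM. Rcd-1r measured 4.05 and 4.04 RPKM under Zeus RNAi, 135 and 114 under Caf40 RNAi and 22.2 and 26.4 in wildtype. Rcd-1 measured 79.3 and 77.9, 25.7 and 23.3, and 98.2 and 95.1 RPKM in the same order. Each target was lowest in its own knockdown. All 12 germline markers examined were detected, with summed levels of 7167 to 9717 RPKM per library. Over all genes, median RPKM stood at 3.71 and 3.74 under Zeus RNAi, 7.66 and 6.95 under Caf40 RNAi and 4.47 and 4.66 in wildtype.

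**Figure D1:**
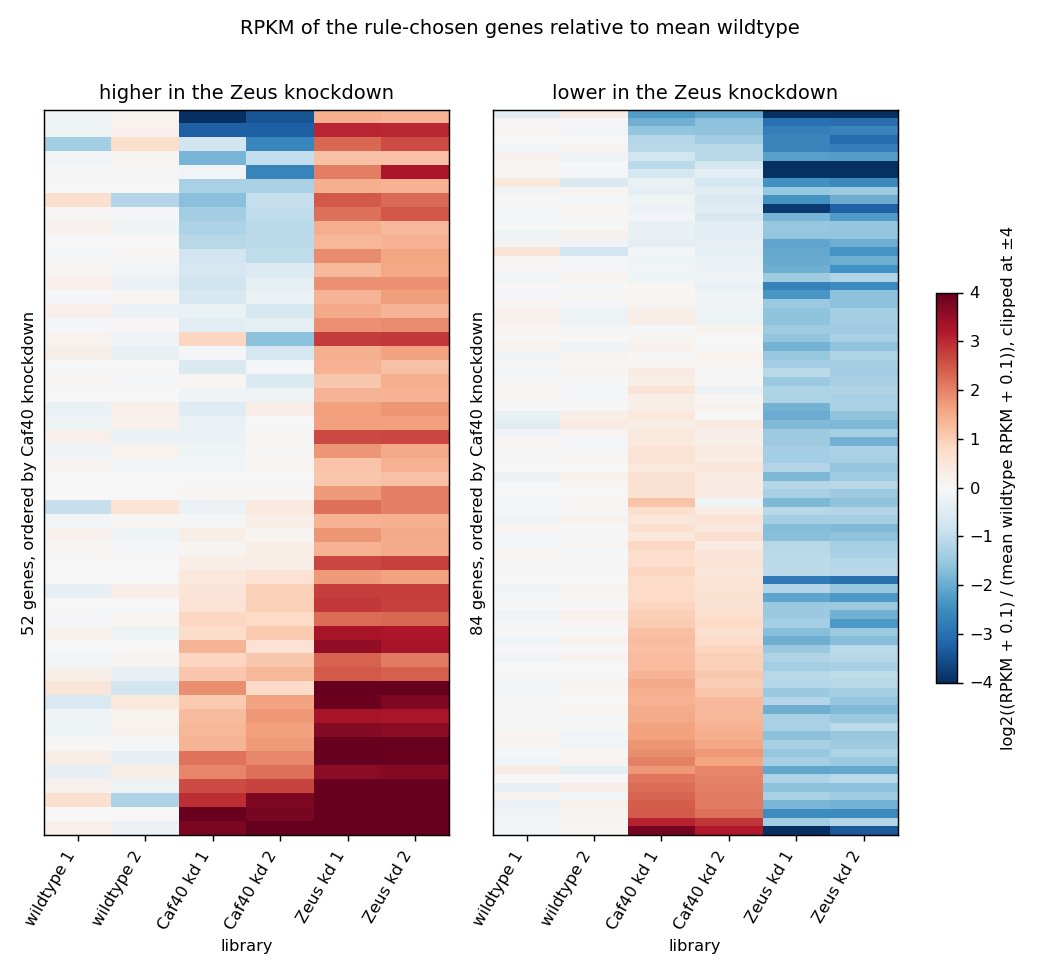
Level of the 136 members in the 6 libraries, as the log2 ratio of RPKM to mean wildtype RPKM (0.1 added to each, colours clipped), with members as rows and libraries as columns. The 52 higher and 84 lower members are split by the rule itself, while the Caf40 knockdown columns hold both higher and lower values.

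Membership of the lower genes changed with the scaling of the libraries. After scaling RPKM by edgeR's TMM factors (0.882 for both Zeus knockdown libraries and 1.19 and 1.11 for the Caf40 knockdown), all 52 higher members still met the limits, but 54 of the 84 lower members did. After setting all libraries to equal medians, all 52 higher and 23 lower members did. Both scalings raise the Zeus knockdown relative to every wildtype and Caf40 knockdown library. No higher member could therefore drop out, while lower members could, so keeping all 52 higher members is no check of them. The same settings brought in other genes, so that the rule then returned 92 higher and 54 lower, or 165 higher and 23 lower. The 23 lower members that met the limits on every scale included Polr2A, SA1, Acf, Obp58c, Oxp, CG33307, CG30100, CG14715 and CG13102. The lower members that met them on the RPKM scale alone included tum, polybromo, CG16863, CG3594, Spn88Eb, kst, Fadd, vir, ftz-f1, CG18731 and CG34283. Those that met them with TMM factors but not with equal medians included hay, RanGAP, Sse, Mccc1, mRpS35, Galphas, Ppn, CG6724 and qjt.

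**Figure D2:**
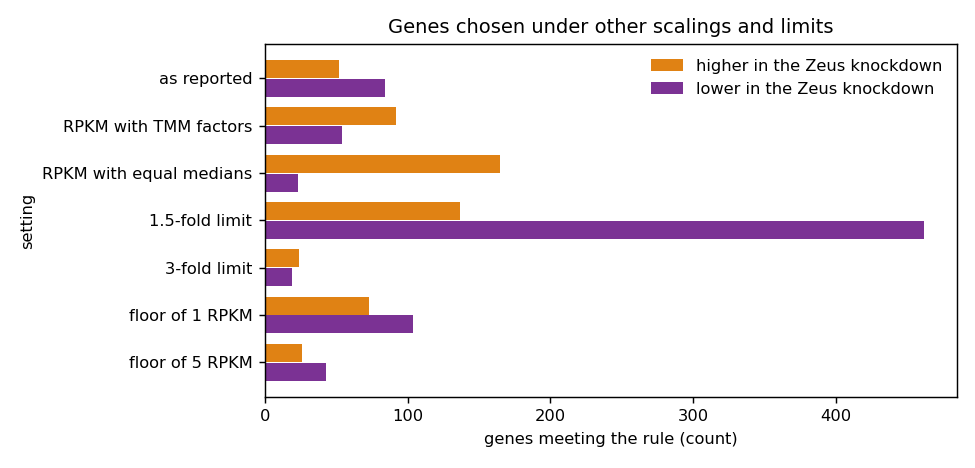
Number of genes that meet the rule, higher and lower, under each fold limit, floor and scaling of RPKM. The higher genes outnumber the lower ones with TMM factors (92 against 54) and with equal medians (165 against 23), the opposite of the order on the RPKM scale at the 2-fold limit (52 against 84); at the 3-fold limit on the RPKM scale the counts are 24 and 19.

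Members were mostly of low level. The median of the higher members was 5.31 RPKM in the Zeus knockdown (range 2.08 to 143), 1.42 under Caf40 RNAi and 1.01 in wildtype. Lower members had a median of 1.87 RPKM in the Zeus knockdown (range 0.0870 to 21.0), 9.37 under Caf40 RNAi and 5.98 in wildtype. The median fold against wildtype was 4.82 among higher members and 2.98 among lower members. Between the closest libraries of the 2 sides, the median ratio was 2.68 for higher and 2.45 for lower members, and 12 and 7 members reached 4-fold. The Zeus knockdown libraries of a member differed from each other by a median of 1.07-fold and 1.12-fold. In bulk testis RNA, fewer cells of a type and less RNA per cell cannot be told apart.

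Among the lower members were genes of transcription and chromatin, a grouping by known roles made after the values were seen. Polr2A, the largest subunit of RNA polymerase II, measured 3.61 and 4.04 RPKM under Zeus RNAi, 25.7 and 20.0 under Caf40 RNAi and 24.2 and 24.1 in wildtype. SA1, a cohesin subunit, measured 1.58 and 1.42 RPKM under Zeus RNAi, 19.9 and 17.9 under Caf40 RNAi and 12.1 and 11.7 in wildtype. Wildtype exceeded the Zeus knockdown 6.31-fold for Polr2A and 7.94-fold for SA1, and for neither gene did a Zeus knockdown library come near any of the other 4. Acf, a subunit of ISWI chromatin remodelers, stood at 5.02 and 4.88 RPKM against 26.0 and 21.9 under Caf40 RNAi and 17.9 and 15.8 in wildtype. The TFIIH helicase gene hay stood at 5.24 and 4.71 RPKM against 19.9 and 16.4 and against 13.2 and 12.7. Wildtype was 3.40-fold above the Zeus knockdown for Acf and 2.60-fold for hay.

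polybromo, a subunit of the Brahma remodeling complex, differed among all 3 groups. It measured 2.04 and 2.25 RPKM under Zeus RNAi, 22.2 and 19.8 under Caf40 RNAi and 4.81 and 4.997 in wildtype. The Caf40 knockdown was above wildtype by 1.87 on the log2 scale (SE 0.09, adjusted p = 2.28e-10, edgeR quasi-likelihood test with Benjamini-Hochberg adjustment). SA1 also rose in the Caf40 knockdown, by 0.43 (SE 0.08, adjusted p = 0.000274).

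**Figure D3:**
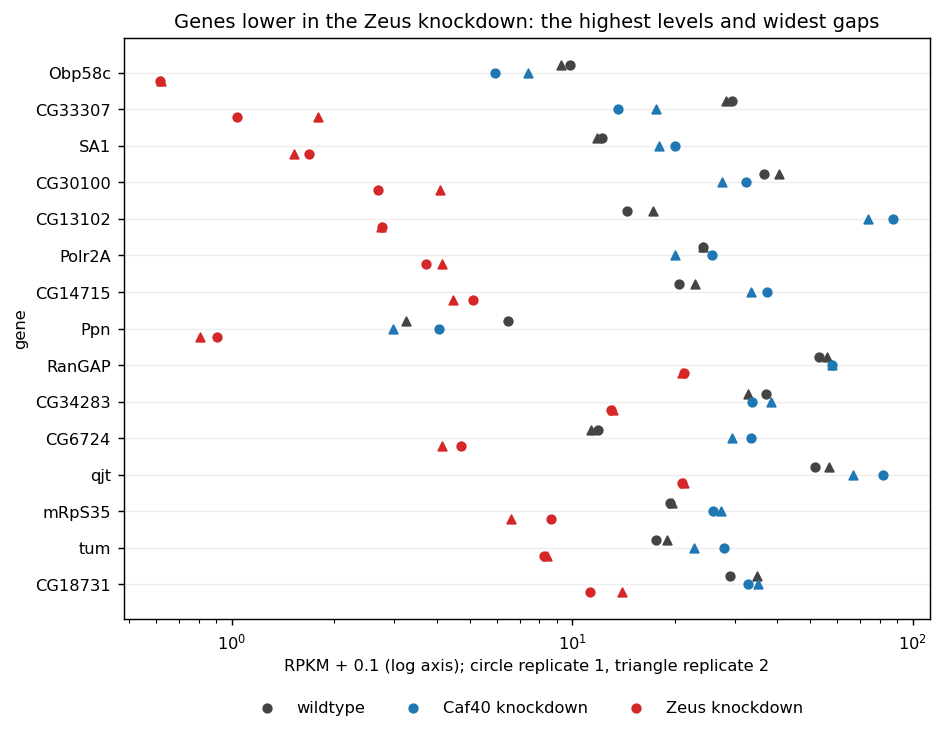
RPKM of named lower members in each library, on a log axis, with a point for each library and colours for the 3 groups. Both Zeus knockdown points lie below the other 4 for every gene, as the rule demands, while the Caf40 knockdown lies above wildtype for SA1 and below it for Obp58c; 0.1 was added to each value, and circles and triangles are replicates 1 and 2.

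RanGAP, tum and Sse, known from nuclear transport and cell division, were also lower members. RanGAP, the GTPase-activating protein of Ran, had 21.1 and 21.0 RPKM under Zeus RNAi, 57.6 and 57.7 under Caf40 RNAi and 52.9 and 55.9 in wildtype. The cytokinesis gene tum had 8.13 and 8.34 RPKM under Zeus RNAi, 27.8 and 22.6 under Caf40 RNAi and 17.5 and 18.8 in wildtype. Wildtype exceeded the Zeus knockdown 2.59-fold and 2.20-fold for these genes, and the replicate libraries of each group lay close together, though tum met the limits on the RPKM scale alone. Sse, which encodes separase, had 0.853 and 0.774 RPKM under Zeus RNAi, 11.7 and 9.82 under Caf40 RNAi and 2.43 and 2.09 in wildtype. Sse rose in the Caf40 knockdown by 2.01 on the log2 scale (SE 0.15, adjusted p = 1.16e-08, edgeR), so its level lay on opposite sides of wildtype in the 2 knockdowns.

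Lower members with a secreted or extracellular product included genes that also fell in the Caf40 knockdown. Obp58c, of the odorant-binding protein family, had 0.516 and 0.517 RPKM under Zeus RNAi, 5.82 and 7.32 under Caf40 RNAi and 9.76 and 9.18 in wildtype. Its closest libraries differed 11.2-fold, the largest gap among the members. Spn88Eb, a serpin, measured 1.78 and 1.70 RPKM under Zeus RNAi, 3.80 and 4.64 under Caf40 RNAi and 15.2 and 14.4 in wildtype. Obp58c and Spn88Eb fell in the Caf40 knockdown by 0.74 (SE 0.21, adjusted p = 0.00457) and 2.01 (SE 0.15, adjusted p = 1.13e-08, edgeR) on the log2 scale. For Spn88Eb the 3 groups were ordered Zeus knockdown, Caf40 knockdown, wildtype, with no overlap. Ppn, which encodes the matrix protein papilin, had 0.803 and 0.707 RPKM under Zeus RNAi, 3.95 and 2.87 under Caf40 RNAi and 6.39 and 3.15 in wildtype, where the last 2 groups overlapped.

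Mitochondrial and metabolic genes were also found among the lower members. mRpS35, a mitochondrial ribosomal protein, measured 8.55 and 6.52 RPKM under Zeus RNAi, 25.7 and 27.3 under Caf40 RNAi and 19.2 and 19.5 in wildtype. Mccc1, of leucine breakdown, measured 5.99 and 6.20 RPKM under Zeus RNAi, 21.9 and 19.3 under Caf40 RNAi and 15.5 and 14.6 in wildtype. Wildtype was 2.57-fold and 2.48-fold above the Zeus knockdown for these genes.

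Several lower members with a CG number as symbol had large differences. CG33307 measured 0.936 and 1.69 RPKM under Zeus RNAi, 13.5 and 17.5 under Caf40 RNAi and 29.4 and 28.2 in wildtype. CG30100 measured 2.59 and 3.97 RPKM under Zeus RNAi, 32.4 and 27.3 under Caf40 RNAi and 36.4 and 40.4 in wildtype. Their wildtype levels were 21.98-fold and 11.7-fold above the Zeus knockdown, and CG33307 fell in the Caf40 knockdown by 1.10 on the log2 scale (SE 0.16, adjusted p = 1.92e-05, edgeR). CG16863 stood at 1.87 and 1.37 RPKM against 5.47 and 4.59 under Caf40 RNAi and 12.4 and 12.1 in wildtype, and it fell in the Caf40 knockdown by 1.52 (SE 0.13, adjusted p = 5.19e-08, edgeR). CG14715 stood at 4.99 and 4.36 RPKM against 37.3 and 33.4 and against 20.4 and 22.9. It rose in the Caf40 knockdown by 0.48 (SE 0.12, adjusted p = 0.00177, edgeR).

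A further set of lower members was far above wildtype in the Caf40 knockdown. Oxp had 0 and 0.174 RPKM under Zeus RNAi, 39.3 and 25.5 under Caf40 RNAi and 2.50 and 2.87 in wildtype. It counted 1 read over both Zeus knockdown libraries against 33 in wildtype, a ratio of 24.2 with a 95% counting interval of 4.05 to 985. Oxp rose in the Caf40 knockdown by 3.33 on the log2 scale (SE 0.29, adjusted p = 8.73e-08, edgeR). CG3594 had 1.38 and 1.64 RPKM under Zeus RNAi, 32.5 and 28.3 under Caf40 RNAi and 3.51 and 4.10 in wildtype. CG6724 had 4.61 and 4.05, 33.3 and 29.3, and 11.8 and 11.3 RPKM in the same order. CG3594 and CG6724 rose in the Caf40 knockdown by 2.76 (SE 0.15, adjusted p = 8.65e-10) and 1.21 (SE 0.10, adjusted p = 4.09e-08, edgeR).

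Other lower members of high level included qjt, at 20.8 and 21.2 RPKM under Zeus RNAi, 81.4 and 66.4 under Caf40 RNAi and 51.5 and 56.6 in wildtype, and the genes CG18731 and CG34283. CG34283 had 12.9 and 13.1 RPKM under Zeus RNAi, 33.7 and 38.2 under Caf40 RNAi and 37.0 and 32.7 in wildtype, and CG18731 had 11.2 and 13.9, 32.6 and 34.9, and 28.9 and 34.9. The Caf40 knockdown and wildtype overlapped for CG34283 and CG18731, and neither was called between them by edgeR (adjusted p = 0.216 and 0.329). Other lower members were named for their known roles after their values were seen. These were kst (beta-heavy spectrin), Galphas (a G protein alpha subunit) and Fadd (a death-domain adaptor of immune signalling). Also among them were vir (of the m6A methyltransferase complex), thoc6 (of mRNA export) and the nuclear receptor gene ftz-f1. On the RPKM scale alone, kst, Fadd, vir, ftz-f1, CG18731 and CG34283 met the limits. Galphas and qjt met them with TMM factors but not with equal medians, and thoc6 met them on every scale.

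DIP-delta and Task6, known from neurons, were higher members, picked out after the values were seen. The list of neuron and neuropeptide genes holds neither. Of all tested genes, 16.8% rose and 20.0% fell in the Zeus knockdown, and 41.9% rose and 38.6% fell in the Caf40 knockdown. Of the 5 tested genes of the list, 1 rose and 2 fell in the Zeus knockdown and 5 fell in the Caf40 knockdown. The number that fell in the Zeus knockdown was 1 when any single Zeus knockdown or wildtype library was left out, and none rose there without Zeus knockdown replicate 1 or wildtype replicate 1. DIP-delta, an immunoglobulin-domain receptor of neurons, measured 22.3 and 22.1 RPKM under Zeus RNAi, 1.78 and 2.30 under Caf40 RNAi and 0.661 and 0.615 in wildtype. The potassium leak channel gene Task6 measured 8.92 and 9.23 RPKM under Zeus RNAi, 1.58 and 1.59 under Caf40 RNAi and 1.33 and 1.29 in wildtype. The Zeus knockdown was 34.8-fold and 6.91-fold above wildtype for these genes, and its replicates were nearly equal. DIP-delta rose in the Caf40 knockdown as well, by 1.47 on the log2 scale (SE 0.23, adjusted p = 3.07e-05, edgeR), whereas Task6 did not pass the test (0.05, SE 0.25, adjusted p = 0.867).

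dpn encodes a transcriptional repressor known from neuroblasts. It measured 4.83 and 4.32 RPKM under Zeus RNAi, 1.68 and 1.28 under Caf40 RNAi and 0 in both wildtype libraries. Taking 3 reads summed over both wildtype libraries as the floor, its level was at least 148-fold higher in the Zeus knockdown and at least 47.4-fold higher in the Caf40 knockdown than in wildtype. inv, the homeodomain paralog of engrailed, measured 7.56 and 8.02 RPKM under Zeus RNAi, 1.34 and 1.40 under Caf40 RNAi and 3.02 and 2.94 in wildtype. It was 2.62-fold above wildtype in the Zeus knockdown, and fell in the Caf40 knockdown by 1.34 on the log2 scale (SE 0.14, adjusted p = 5.82e-07, edgeR). neo, a zona pellucida domain gene of the embryonic epidermis, measured 4.81 and 5.03 RPKM under Zeus RNAi, 1.51 and 1.79 under Caf40 RNAi and 0.224 and 0.398 in wildtype. It rose in the Caf40 knockdown by 2.20 (SE 0.26, adjusted p = 2.17e-06, edgeR), so for dpn and neo both knockdowns lay above wildtype.

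**Figure D4:**
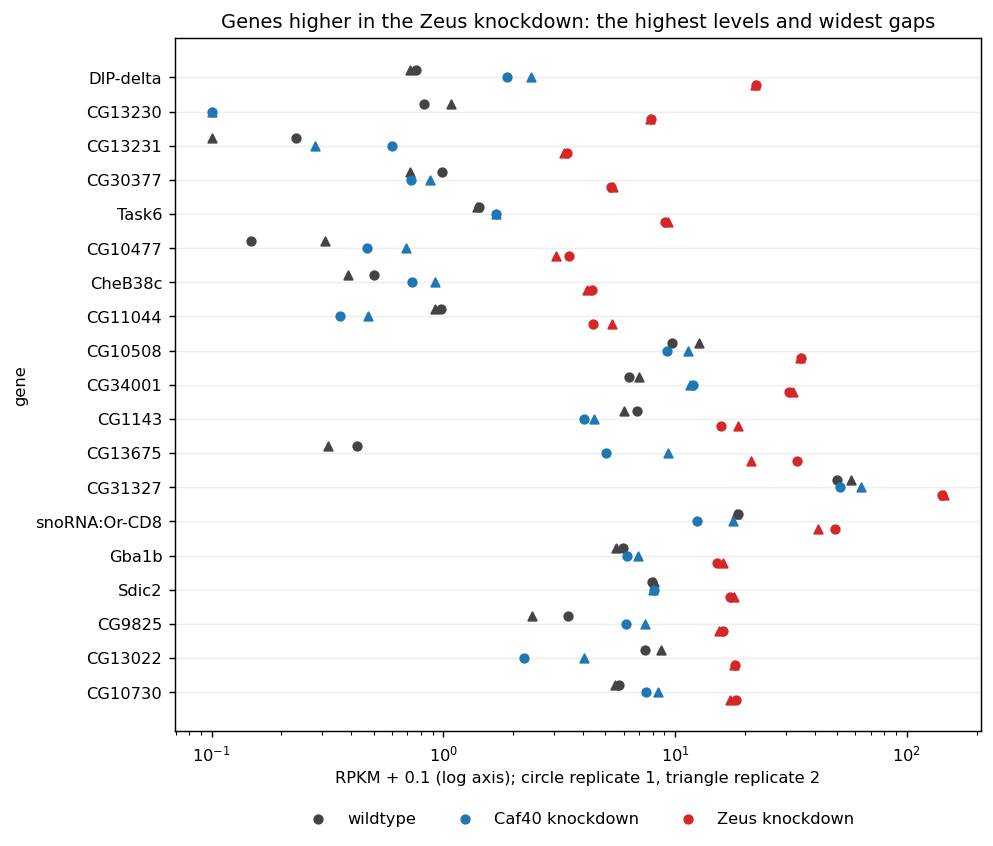
RPKM of named higher members in each library, on a log axis, with a point for each library and colours for the 3 groups. Both Zeus knockdown points lie above the other 4 for every gene, as the rule demands, while the Caf40 knockdown lies above wildtype for CG9825 and below it for CG13022; 0.1 was added to each value, and circles and triangles are replicates 1 and 2.

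Several higher members of high level had a CG number as symbol. CG31327 measured 142 and 145 RPKM under Zeus RNAi, 51.5 and 63.2 under Caf40 RNAi and 50.04 and 57.2 in wildtype, a 2.67-fold difference from wildtype. CG10508 measured 34.8 and 34.5 RPKM under Zeus RNAi, 9.12 and 11.3 under Caf40 RNAi and 9.63 and 12.6 in wildtype. For both genes the Caf40 knockdown and wildtype overlapped. CG13675 measured 33.6 and 21.2 RPKM under Zeus RNAi, 4.95 and 9.18 under Caf40 RNAi and 0.325 and 0.219 in wildtype. Both knockdowns were far above wildtype for CG13675, with a rise of 4.48 on the log2 scale in the Caf40 knockdown (SE 0.48, adjusted p = 6.35e-07, edgeR), although its replicates lay apart within each knockdown.

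CG9825, CG1143 and CG13022 showed both directions in the Caf40 knockdown. CG9825 had 16.0 and 15.4 RPKM under Zeus RNAi, 6.03 and 7.33 under Caf40 RNAi and 3.35 and 2.31 in wildtype. CG13022 had 18.01 and 17.9 RPKM under Zeus RNAi, 2.12 and 3.94 under Caf40 RNAi and 7.35 and 8.57 in wildtype. CG1143 had 15.7 and 18.6, 3.96 and 4.36, and 6.77 and 5.92 RPKM in the same order. In the Caf40 knockdown, edgeR found that CG9825 rose by 1.02 (SE 0.18, adjusted p = 0.00012), while CG13022 and CG1143 fell by 1.55 (SE 0.26, adjusted p = 7.38e-05) and 0.83 (SE 0.18, adjusted p = 0.000715) on the log2 scale. CG10730 had 18.2 and 17.1 RPKM under Zeus RNAi, 7.41 and 8.33 under Caf40 RNAi and 5.61 and 5.39 in wildtype.

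Higher members of lower level rested on fewer reads. CG34436 had 4.91 and 4.55 RPKM under Zeus RNAi, 0 and 0.0662 under Caf40 RNAi and 1.56 and 1.89 in wildtype. Its wildtype libraries held 68 reads against 1 in the Caf40 knockdown, a ratio of 44.5 with a 95% counting interval of 7.72 to 1782, and edgeR called the fall (adjusted p = 3.86e-06). CG11044 had 4.31 and 5.23 RPKM under Zeus RNAi, 0.260 and 0.371 under Caf40 RNAi and 0.877 and 0.820 in wildtype, and the Caf40 knockdown was lower than wildtype (log2 difference −1.603, SE 0.34, adjusted p = 0.000491, edgeR). CG30377 stood at 5.19 and 5.28 RPKM against 0.627 and 0.777 and against 0.887 and 0.616, with overlap of the last 2 groups. CheB38c, of a chemosensory protein family, stood at 4.28 and 4.09 RPKM against 0.636 and 0.818 and against 0.400 and 0.288. CG10477 stood at 3.38 and 2.96 RPKM against 0.368 and 0.592 and against 0.0483 and 0.209.

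Mst57Db was the 1 member found in a list of other tissues. This accessory gland gene measured 3.93 and 3.42 RPKM under Zeus RNAi, 0.133 and 0.285 under Caf40 RNAi and 1.05 and 0.226 in wildtype. The summed level of the 12 listed accessory gland genes was 81.7 and 73.8 RPKM under Zeus RNAi, 59.99 and 69.0 under Caf40 RNAi and 70.5 and 70.0 in wildtype, and none was at 0 in every library. Most of that sum was Acp95EF, at 55.6 to 58.8 RPKM under Zeus RNAi and in wildtype. Without it, the other 11 genes, Mst57Db among them, summed to 23.3 and 18.2 RPKM under Zeus RNAi. Their sums were 8.68 and 11.02 under Caf40 RNAi and 12.5 and 11.2 in wildtype. The rule chose Mst57Db for its level under Zeus RNAi, so the sum is not independent of the rule. The genes of the list did not move together: Acp26Aa was lower under Zeus RNAi than in wildtype, and Est-6 and Gld were highest under Caf40 RNAi. The part of accessory gland tissue in the level of Mst57Db was not tested. Acp53C14b, another accessory gland gene, and Jon25Biii, a digestive protease gene, were also higher members and were named after their values were seen. The summed level of 11 gut genes was 23.6 and 23.0 RPKM under Zeus RNAi, 46.1 and 42.9 under Caf40 RNAi and 22.4 and 18.3 in wildtype.

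The Caf40 knockdown was compared with wildtype for the 10223 genes whose RPKM averaged at least 1, since the rule treats these 4 libraries alike. The question was whether members called by the rule in the Zeus knockdown also differ in the other knockdown. At an adjusted p of 0.05 by edgeR, 88 of the 134 members tested differed, 54 higher and 34 lower, where the background share was 80.5% of all tested genes (41.9% higher and 38.6% lower). The members' share, 65.7%, was not above that background. By this measure, which takes differences of any size, 88 members were therefore not changed in the Zeus knockdown alone. The count was 74 with DESeq2, and fewer members had a called difference of at least 2-fold. For the other 46 tested, a missing call does not show that the groups were alike.

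Of the 84 lower members, 39 rose in the Caf40 knockdown, 19 fell and 26 were not called. Of the 50 higher members tested, 15 rose, 15 fell and 20 were not called. Among tested genes with a wildtype level within the range of the lower members, 80.6% were called, of which 49.6% rose and 31.0% fell as shares of all tested in that range, against 46.4% and 22.6% of the lower members. Within the middle quartiles of the lower members' wildtype level, 81.9% of tested genes were called, with 59.4% rising and 22.6% falling. The median log2 difference was 0.23 for lower members, −0.22 for higher members, 0.06 for all tested genes and 0.25 for the genes in that range. On the scale of library totals, which moved the median of all genes from 0.06 to 0.28, 60 members rose and 24 fell. The rule itself limits how far a lower member can fall or a higher member can rise in the Caf40 knockdown, so no direction is read from these counts.

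Separation without overlap gave a similar picture. Among lower members, the Caf40 knockdown lay above both wildtype libraries for 51 genes and below for 18, where 54.4% and 35.8% of all tested genes did so, and 62.7% and 28.1% of those in the wildtype range of the lower members. Among higher members, 22 lay above and 16 below. The groups overlapped for 15 lower and 14 higher members. Fold differences of at least 2 with a call were found for 19 lower members that rose, 7 lower members that fell, 10 higher members that rose and 8 higher members that fell. Of all tested genes, 20.6% rose and 17.4% fell by that much.

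**Figure D5:**
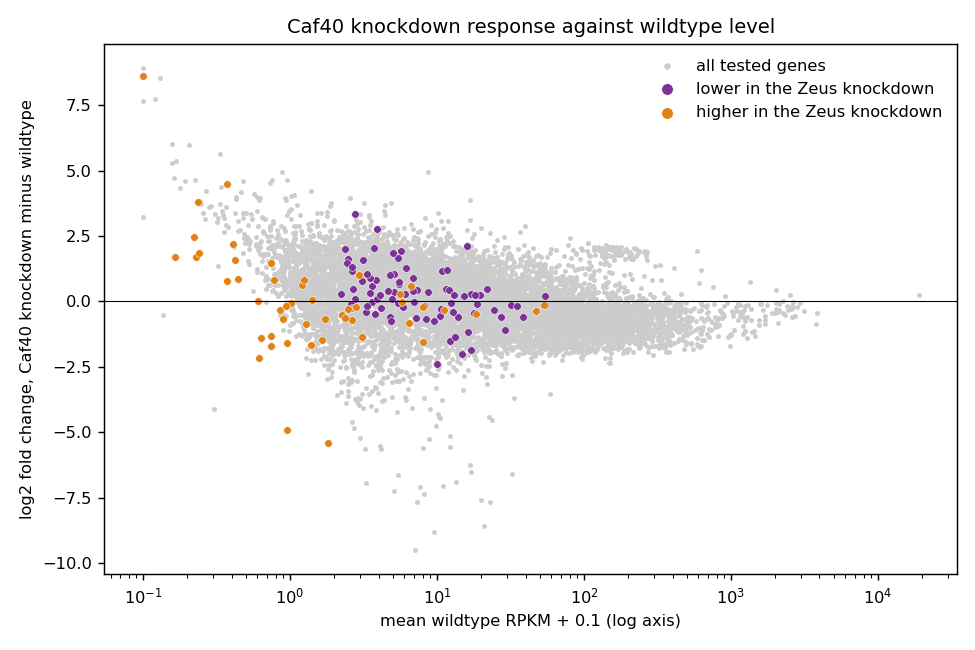
Caf40 knockdown minus wildtype log2 fold change (edgeR) against wildtype level in RPKM on a log axis, for all tested genes and for the members. Higher and lower members spread to both sides of 0, with medians of −0.22 and 0.23; 0.1 was added to the wildtype level.

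Of the 53 members named by the rule stated in the methods, 36 were called between the Caf40 knockdown and wildtype, and 23 of these calls held under every alternative that could test the gene; genes of low level were not tested under the stricter filter. The calls for Polr2A, Acf, hay, tum, Mccc1, qjt, Ppn, CG10477, CG10508, CG10730, CG13230, CG30100 and CG34001 did not, and are given here as values alone. No called difference of a named gene changed direction. Without a call, the direction could depend on the scaling. For RanGAP and Gba1b, RPKM under Caf40 RNAi lay above wildtype without overlap. Their fitted Caf40 knockdown minus wildtype differences with TMM factors were −0.146 and −0.031, and neither was called. The Zeus knockdown and the Caf40 knockdown share their wildtype libraries.

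Overlapping genes limit what some members measure. The reference annotation (BDGP6, used for gene order alone because the files use dm3) placed 45 higher and 79 lower members, of which 9 and 30 overlap another listed gene, and no label states that counting used strand. CG13102 contains Rcd-1r on the opposite strand, and its reads exceeded those of Rcd-1r by 1 to 5 in each library. It measured 2.66 and 2.64 RPKM under Zeus RNAi, 87.3 and 73.7 under Caf40 RNAi and 14.4 and 17.1 in wildtype, and cannot be told apart from the knocked-down gene. CG11889 and CG11891 share 1 locus and had identical reads in all 6 libraries, at 1.83 and 2.19 RPKM under Zeus RNAi, 6.86 and 5.05 under Caf40 RNAi and 6.52 and 5.05 in wildtype. Without CG13102 and with that pair counted once, 82 lower members remain, of which 38 rose and 19 fell in the Caf40 knockdown. Oxp lies within CG10936 on the same strand, which had 646% of its reads over the 6 libraries. On the opposite strand, CG33307 and CG10730 lie within CenG1A and bwa, and CG30377, qjt and Mccc1 overlap CG12159, CG6333 and faf. Each of these overlapping genes had more reads in total than the member, so the levels of these members are uncertain.

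CG13230 and CG13231 lie within CG13229 on the opposite strand. CG13230 had 7.77 and 7.70 RPKM under Zeus RNAi, 0 in both Caf40 knockdown libraries and 0.728 and 0.982 in wildtype, and CG13231 had 3.32 and 3.22, 0.501 and 0.179, and 0.131 and 0. The overlapping CG13229 had 11.7 and 11.9 RPKM under Zeus RNAi, 3.12 and 3.62 under Caf40 RNAi and 10.4 and 9.67 in wildtype. CG13229, like CG13230 but not CG13231, was lowest under Caf40 RNAi. Sdic2, a sperm dynein gene with near-identical copies, had 17.2 and 17.8 RPKM under Zeus RNAi, 8.003 and 7.94 under Caf40 RNAi and 7.84 and 8.03 in wildtype, and its value is uncertain because reads of the copies could be split.

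In gene order, 5 pairs of members were adjacent. hay and CG34001 share a start and strand, yet hay was lower and CG34001 higher in the Zeus knockdown, the latter at 31.0 and 32.3 RPKM against 11.8 and 11.5 under Caf40 RNAi and 6.21 and 6.90 in wildtype. Gba1b, a glucocerebrosidase gene, and Qsox4, a sulfhydryl oxidase gene, were both higher. Gba1b had 15.1 and 16.0 RPKM under Zeus RNAi, 6.13 and 6.78 under Caf40 RNAi and 5.89 and 5.44 in wildtype. Qsox4 had 6.29 and 5.17, 2.17 and 2.53, and 1.05 and 1.25 RPKM, and rose in the Caf40 knockdown by 0.81 (SE 0.23, adjusted p = 0.00461, edgeR). That both genes of this pair stood at their highest in the Zeus knockdown follows from the rule. CG31777 and cutlet, a gene related to clamp loaders, were both lower, as were Mccc1 and Acf. CG31777 had 1.99 and 3.32 RPKM under Zeus RNAi, 10.95 and 9.23 under Caf40 RNAi and 10.2 and 10.8 in wildtype, and cutlet had 1.08 and 1.43, 6.06 and 4.97, and 3.36 and 4.58.

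By chromosome arm, 2 of 45 placed higher members and 8 of 79 placed lower members lay on X (4.44% and 10.1%), which holds 16.1% of the tested genes. Arm 3R held 12 higher and 23 lower members (26.7% and 29.1%), against 24.6% of tested genes. Symbols made of a CG number belonged to 20 of 45 higher and 43 of 79 lower members with a symbol, against 3641 of 8970 tested genes with a symbol. The median exon length was 1269 bases for higher and 1558.5 bases for lower members, against 1736 bases for tested genes.

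At the edge of the rule, the higher members Qsox4, CG10730, CG13022 and CG9825 had ratios between the closest libraries of 2.05, 2.05, 2.09 and 2.10. GABA-B-R3, GluRIIC, CG31370 and CG15760 fell short, at rounded ratios of 2.00, 1.96, 1.93 and 1.93. The lower members CG15160, grass, CG14443 and Rnb had 2.02, and Lk, Acat1, Alg9 and CG9331 fell short at rounded ratios of 2.00, 1.99, 1.99 and 1.99.

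None of the listed CCR4-NOT, DNA replication and small RNA silencing genes was a member. The rule left out Rcd-1r and piwi by name, so neither could be a member whatever its level. Of 7 measured CCR4-NOT genes, Not11 rose and Not3 fell in the Zeus knockdown, where edgeR called 36.8% of all tested genes (16.8% higher and 20.0% lower), and 3 rose and 3 fell in the Caf40 knockdown, one of the latter being its target, Rcd-1. Without either Caf40 knockdown replicate, 3 CCR4-NOT genes rose and 2 fell in the Zeus knockdown. Of 10 DNA replication genes, 5 fell in the Zeus knockdown and none rose, while all 10 rose in the Caf40 knockdown. Of 10 small RNA silencing genes, 1 rose and 3 fell in the Zeus knockdown, and 7 rose and 1 fell in the Caf40 knockdown. The Caf40 knockdown shares of all tested genes were 41.9% higher and 38.6% lower. Without single libraries, the DNA replication count in the Zeus knockdown was 2 without Zeus knockdown replicate 2 and 3 without Zeus knockdown replicate 1 or either wildtype replicate. The small RNA genes that fell there numbered 1 without Zeus knockdown replicate 2 and 5 without Caf40 knockdown replicate 1. Those that rose numbered 0 without Zeus knockdown replicate 2 or wildtype replicate 1, and 2 without either Caf40 knockdown replicate.

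Of 12 germline genes, 2 rose and 4 fell in the Zeus knockdown, and 1 rose and 9 fell in the Caf40 knockdown. The shares of all tested genes were 16.8% and 20.0% in the Zeus knockdown and 41.9% and 38.6% in the Caf40 knockdown. The germline genes that rose in the Zeus knockdown numbered 0 without any 1 Zeus knockdown or wildtype library, and 5 without either Caf40 knockdown library. Without Caf40 knockdown replicate 1, 2 germline genes rose in the Caf40 knockdown.

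Lists of other tissues gave 1 member. In the Zeus knockdown, 16.8% of all tested genes rose and 20.0% fell. There, 4 of 7 tested accessory gland genes rose and 1 fell. The rule chose 1 of these 4, Mst57Db, for its level under Zeus RNAi, so that call is not independent of the rule. In the same comparison, 4 of 10 muscle genes rose and 1 fell, and 2 of 8 cyst and hub genes rose. Of the gut genes 2 of 5 rose, and of the haemocyte genes 3 of 5 fell. In the Caf40 knockdown, 2 accessory gland genes rose and 3 fell, 6 muscle genes rose and 1 fell, 3 cyst and hub genes rose and 4 fell, 4 gut genes rose, and 1 haemocyte gene rose and 1 fell, where 41.9% of all tested genes rose and 38.6% fell. The haemocyte genes that fell there numbered 0 without Caf40 knockdown replicate 2 or wildtype replicate 1, and 2 without wildtype replicate 2 or either Zeus knockdown replicate. Mst57Db was the only member in any of the 18 lists, of which 17 had genes tested. None of the 3 ejaculatory bulb genes was found by symbol, and other lists were found in part, such as 10 of 18 small RNA silencing genes. Several Zeus knockdown counts depended on single libraries: accessory gland genes that rose numbered 1 without either Zeus knockdown replicate and 2 without either wildtype replicate, cyst and hub genes that rose numbered 1 without any 1 of these 4 libraries, those that fell numbered 2 rather than 0 without either Caf40 knockdown replicate, muscle genes that rose numbered 1 without Zeus knockdown replicate 2 or wildtype replicate 2, and haemocyte genes that fell numbered 0 without Zeus knockdown replicate 2 or wildtype replicate 1.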

How the data were processed

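Per the file headers, the authors deposited, for each library, raw read counts per gene, exon lengths, mapped-read totals and an RPKM value. Per the submitters' processing notes, Bowtie was the aligner and dm3 the genome build. The Bowtie version, gene annotation and treatment of multiply matching reads were not given in the sources used here. The single D. simulans and D. yakuba libraries were not used. Symbols came from a gene table that named 12862 of the 15178 identifiers (84.7%); 12 members have no symbol and are counted but not named.

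The members were chosen on the deposited RPKM by the stated limits, leaving out Rcd-1r, piwi, zpg and symbols beginning with lncRNA, Gr, Or or Cyp. The members and the gene lists were chosen with earlier results of these data known. Counts were tested with edgeR 4.0.16 in R 4.3.3 (quasi-likelihood, two-sided, TMM, 3 groups of 2 libraries in 1 fit, mean RPKM of at least 1, Benjamini-Hochberg over 10223 genes, threshold 0.05), with common biological coefficient of variation 0.0747; limma 3.58.1 and DESeq2 1.42.0 served as alternatives. The test was checked on simulated data in which few genes differed, evenly up and down. It was not checked for changes as wide as those called in the Caf40 knockdown. Printed levels are RPKM, while log2 differences carry TMM factors. Intervals at 95% cover counting error only, and floors are 3 reads.

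Members named with values, separately for higher and lower members, were the 12 of highest level, the 8 with the largest ratio between the closest libraries, those next to another member, those in a gene list and the 8 with the smallest p between the Caf40 knockdown and wildtype, if they had a symbol; the values of 1 of these members are not reported here. Lists with counts were testis germline, cyst and hub, accessory gland, muscle, haemocyte, gut, neuron, CCR4-NOT, DNA replication and small RNA silencing. Alternatives were other scalings, tools, filters, fold limits and floors, a replicate block and each library left out.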

Additional observations from a re-analysis of the deposited data

Results flagged for a closer look

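For 51 lower members, every Zeus knockdown library was below and every Caf40 knockdown library above both wildtype libraries, and for 16 higher members the reverse held. The Zeus knockdown side of this follows from the rule. The difference between the knockdowns was not tested, because the rule that chose the members used it. These were 60.7% of the lower and 30.8% of the higher members. Of all tested genes, 54.4% lay above and 35.8% below wildtype in the Caf40 knockdown without overlap. Above wildtype lay 62.7% of tested genes in the wildtype range of the lower members. No difference of the members from other genes is read from these counts.

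Among the named members with opposite differences in the 2 knockdowns, the Caf40 knockdown minus wildtype log2 difference was 2.12 for CG13102, 2.76 for CG3594, 1.21 for CG6724, 3.33 for Oxp, 2.01 for Sse and 1.87 for polybromo, all lower in the Zeus knockdown. It was −1.55 for CG13022, −5.40 for CG34436 and −1.34 for inv, all higher in the Zeus knockdown. The fitted value for CG34436 rests on 1 read in the Caf40 knockdown and depends on the prior count. CG13102 cannot be told apart from Rcd-1r by these counts.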

How the results depend on the processing

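The rule returned 599 genes with a 1.5-fold limit, 43 with a 3-fold limit (24 higher and 19 lower) and 69 with a floor of 5 RPKM, against 136, and 148 to 212 with 1 library left out. A mean RPKM of at least 5 left 64 members to test, of which 51 were called between the Caf40 knockdown and wildtype, against 88; with 1 library left out the count was 70 to 86. Over all genes, Caf40 knockdown calls ran from 7399 to 9051 around 8230, and Zeus knockdown calls were 1553 to 5367 with 1 library left out, against 3761. Genes that rose made up 45.6% of the Zeus knockdown calls, and 21.9% on library totals. Members that rose made up 61.4% of the members called, and 74.7% with limma on log2(RPKM + 1). Of the list genes, 54 were called in the Zeus knockdown, 34 with a mean RPKM of at least 5, and 26 to 75 with 1 library left out. Differences between replicates 1 and 2 correlated weakly between groups (−0.127, −0.03 and −0.009 over 7864 genes). That does not settle whether the numbers pair the libraries, since each group has only 2. With a replicate block, 8169 Caf40 knockdown, 3615 Zeus knockdown and 84 member calls were made, with 52 and 86 list genes called in the Zeus and Caf40 knockdowns. With crossed numbers, a setting chosen after seeing the data, 8242 genes and 86 members were called in the Caf40 knockdown. With 2 libraries a group, no single gene can be judged without the shared estimate of spread, and members near 2 RPKM rest on few reads.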
